A study of Mus musculus with 12 samples.

Results

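p53 (Trp53) and 9 genes it is known to act on were followed in the livers of mice with and without Pml. The 10 genes are Ccng1, Cdkn1a, Trp53, Mdm2, Bax, Btg2, Gadd45a, Sesn1, Sesn2 and Phlda3. Every probe set that the array's annotation gives to exactly 1 of these symbols was taken, which found 16 of 45037 probe sets, for 8 of the 10 genes. Trp53 and Bax are not analysed here, because no probe set was paired with either of them alone. Ccng1 and Sesn1 had 3 probe sets each, Cdkn1a, Mdm2, Btg2 and Sesn2 had 2 each, and Gadd45a and Phlda3 had 1 each. The genes were chosen by their measured log2 differences between knockout and wild type in these same arrays. Those differences are therefore given here as a description with no test. The effects of diet were tested, but those within 1 genotype share group means with the differences that chose the genes.

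The livers came from male mice, either wild type or lacking Pml (Pml-KO), kept for 20 weeks on a control diet with 10% of its calories from fat or a diet with 60%. All mice were fasted for 8 h before the liver was taken. The 4 groups are wild type on the low-fat diet, wild type on the high-fat diet, knockout on the low-fat diet and knockout on the high-fat diet, with 3 liver extracts each out of 8 mice per group. Each extract was hybridised to 1 array. The strain, the age and the way the knockout was made are not given in the sources used here, nor whether each extract came from a mouse of its own, so the p-values measure the spread between these extracts. Whole liver was used, and a lower signal from fewer cells of a type cannot be told apart from less RNA per cell.

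p53 is a transcription factor that is stabilised when DNA is damaged or a cell is otherwise stressed, and it then binds paired copies of a short element near its target genes. Some targets stop the cell cycle or repair DNA, some trigger cell death, and others restrain p53 itself or growth signalling. The Pml protein builds nuclear bodies in which p53 and enzymes that modify it can gather, which is why p53 targets are of interest in a Pml knockout. In an unstressed liver most of these targets are expressed at a basal level.

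Ccng1 and Cdkn1a are shown first with their promoter sequence, because they are the members with the lowest signals in the knockout relative to wild type and the closest matches to the p53 consensus. RefSeq promoter windows (GRCm38.p6, from 250 bases before to 50 bases after a transcription start) were found for all 10 genes, 12 windows in all. Each window was searched for the p53 consensus, a 10-letter element, and for pairs of it with no letters between (20 letters, with the C and the G of both cores required). The element reads the same on both strands, so 1 search covers both. The bases from -250 to -31 of Ccng1 (chr11:40755317-40755536, minus strand) and of the upstream start of Cdkn1a (chr17:29090729-29090948, plus strand) are given 5′ to 3′, with the best paired match in capitals.
Ccng1: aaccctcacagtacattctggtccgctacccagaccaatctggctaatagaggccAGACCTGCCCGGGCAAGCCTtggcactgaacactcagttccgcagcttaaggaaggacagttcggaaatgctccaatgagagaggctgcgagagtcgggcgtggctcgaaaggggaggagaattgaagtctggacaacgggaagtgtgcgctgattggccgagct
Cdkn1a: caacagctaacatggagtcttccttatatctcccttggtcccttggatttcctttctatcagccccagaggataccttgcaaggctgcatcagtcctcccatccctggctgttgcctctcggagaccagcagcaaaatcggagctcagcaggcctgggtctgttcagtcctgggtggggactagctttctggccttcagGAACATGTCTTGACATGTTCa

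Both matches shared 19 of the 20 letters of the consensus. The match lay from -195 to -176 in Ccng1 and from -51 to -32 in Cdkn1a. A match of 19 or more letters was found in 22 of 32851 promoter windows, or 0.067%. The best paired windows of other members are set below them to show how they compare, again 5′ to 3′, now with the letters that match the consensus in capitals and the others in lower case.
Ccng1: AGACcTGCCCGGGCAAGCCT
Cdkn1a, upstream start: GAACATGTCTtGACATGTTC
Trp53: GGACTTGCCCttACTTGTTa
Sesn1, downstream start: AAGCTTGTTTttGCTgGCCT
Phlda3: GGcCcTGTCCGGGCggGTgC
Btg2: AGGCgcGggCGAGCTgGCgg
Mdm2: cGtCggGCgTGcGCgcGCgC
Sesn2: AGcCggGCgaGcGCTgGCag

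Trp53 and the downstream start of Sesn1 had 17 matching letters, which 1.38% of all windows reached. Phlda3 had 15 (12.4% of windows reached this), Btg2, Bax and the downstream start of Cdkn1a had 13 (39.5%), and the upstream start of Sesn1 had 12 (52.6%). Mdm2 and Sesn2 had 11 (61.3%), and Gadd45a had 8 (69.3%). A perfect single element stood in 7 of the 12 member windows and in 8.36% of all windows. A paired window with both cores stood in all 12 and in 69.6% of all windows. These are matches of letters in 1 short window near a start, and p53 binding was not measured.

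**Figure D1:**
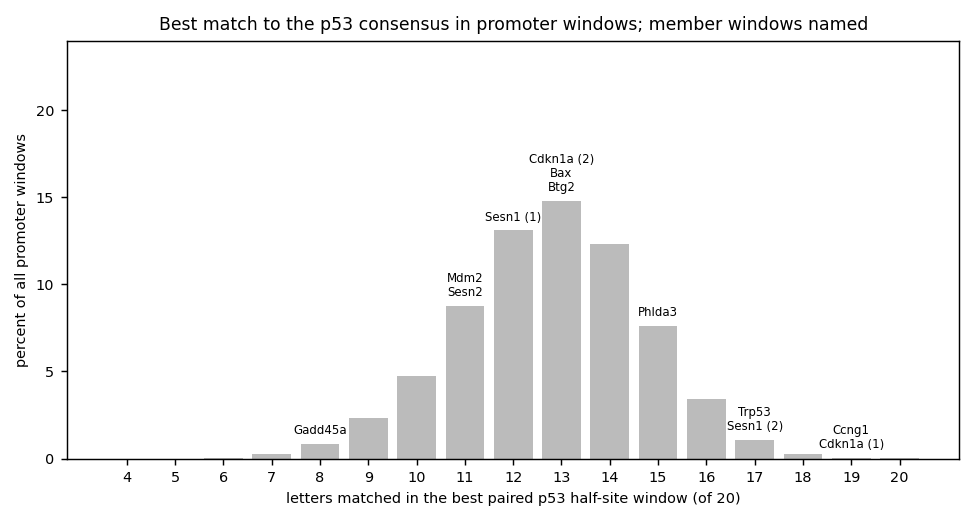
Percent of 32851 promoter windows (y axis) by the number of letters, of 20, that match the paired p53 consensus in the best window (x axis); the bars are all windows with both cores, and the members are named above the bar they fall in, with the window number where a gene has more than 1. Ccng1 and the first Cdkn1a window stand at 19, the other members between 8 and 17.

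The labels held for the deleted gene. Pml had log2 signals of 4.92 to 5.40 in the 6 wild-type livers and 3.04 to 3.82 in the 6 knockout livers. Across probe sets, r between arrays was 0.986 to 0.995. Hepatocyte markers, all 12 of 12 measured and bright enough to be tested, averaged 12.42 to 12.63 in each liver, as the label of the tissue implies. Macrophage and Kupffer cell markers (11 of 13 listed symbols tested) averaged 5.13 in knockout low-fat extract 2 and 5.73 in knockout high-fat extract 3. In the other 10 they averaged 6.26 to 7.22. Liver endothelial markers (11 of 12 tested) averaged 5.99 to 6.09 in knockout low-fat extract 2 and knockout high-fat extracts 2 and 3, and 6.51 to 6.97 elsewhere. The counts and medians over the members, and the members whose sign turned, are also given without these 2 macrophage-poor arrays, and the part that cell makeup has in the other results was not tested.

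Signals are on the log2 scale throughout, so a difference of 1 is a change of 2-fold, and the standard errors (SE) of the genotype differences of member probe sets come from limma over all probe sets. Levels are compared only within a probe set. Ccng1 encodes cyclin G1, a cyclin-like protein that is induced by p53 and takes part in the control of Mdm2. On its brightest probe set (1420827_PM_a_at) the low-fat wild-type livers had 8.15, 8.28 and 8.32, and the high-fat ones 8.17, 8.19 and 8.42. Low-fat knockout livers had 7.67, 7.66 and 7.90, and high-fat knockout livers 7.78, 7.80 and 7.71. Every knockout liver was therefore below every wild-type liver, whichever diet it ate. The level was 1.42-fold lower in the knockout (averaged over diets, -0.50, SE 0.0753). Taken by diet, the difference was -0.51 with low-fat and -0.50 with high-fat feeding.

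The other Ccng1 probe sets ran the same way but with more scatter. On 1450016_PM_at the wild-type livers had 7.85, 8.06, 7.78 (low-fat) and 7.81, 7.57, 7.76 (high-fat), and the knockout livers 7.32, 7.15, 7.67 and 7.32, 7.51, 7.54. On 1450017_PM_at they had 7.11, 7.13, 6.76 and 6.85, 6.68, 7.14, against 6.22, 6.12, 6.83 and 6.28, 6.58, 6.51. Knockout low-fat extract 3 was the highest knockout liver on all 3 probe sets, and on the last 2 it reached into the wild-type range. The averaged differences were -0.39 (SE 0.0971) and -0.52 (SE 0.130).

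Cdkn1a encodes p21, the inhibitor of cyclin-dependent kinases through which p53 stops the cell cycle. On 1424638_PM_at the low-fat wild-type livers had 5.35, 4.89 and 7.10, and the high-fat ones 5.25, 5.67 and 6.48. Low-fat knockout livers had 5.06, 4.80 and 4.63, and high-fat knockout livers 4.98, 4.66 and 4.66. The 6 knockout livers were alike and low, between 4.63 and 5.06, whereas the 6 wild-type livers spread from 4.89 to 7.10. Extract 3 was the highest in both wild-type groups, and wild-type low-fat extract 2 lay within the knockout range. The averaged difference was -0.99 (SE 0.298, 1.99-fold lower). On the low-fat diet it was -0.95, but -0.29 without wild-type low-fat extract 3 and -1.39 without extract 2. On the high-fat diet it was -1.03, and -0.69 without wild-type high-fat extract 3.

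The second Cdkn1a probe set, 1421679_PM_a_at, had 5.15, 4.45 and 5.98 in wild-type low-fat and 4.70, 4.86 and 5.96 in wild-type high-fat livers. It had 4.88, 4.26 and 4.17 in knockout low-fat and 4.53, 4.18 and 4.68 in knockout high-fat livers. The same pair of wild-type extracts stood above all others, so both probe sets place the high Cdkn1a signal in those livers. The averaged difference was -0.74 (SE 0.252). The spread between livers differed by genotype on both sets: the SD over 6 livers was 0.836 in wild type and 0.182 in knockout on the first, and 0.650 and 0.296 on the second. That difference in spread was not tested.

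**Figure D2:**
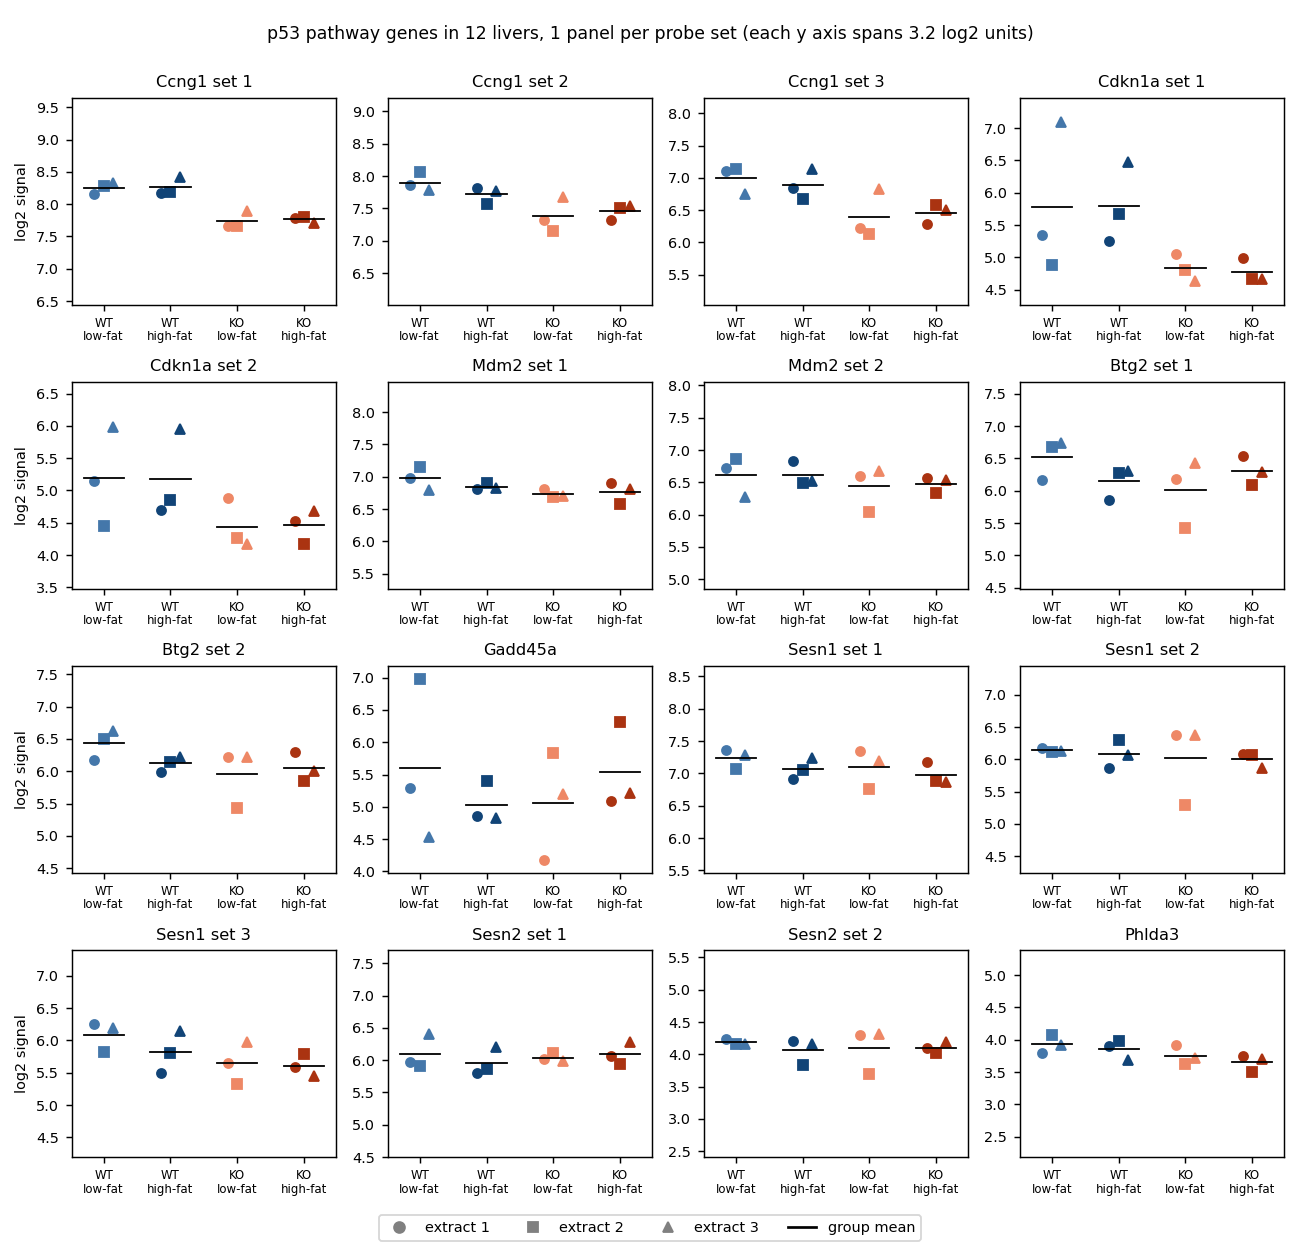
Log2 signal (y axis) of each of the 16 probe sets in the 12 livers, by group (x axis), with 1 point per liver, a marker for its extract number and a line at the group mean. Each panel spans 3.2 log2 units around the midpoint between its lowest and highest value. Ccng1 set 1 separates the genotypes with 7.90 as the highest knockout and 8.15 as the lowest wild-type value, and the wild-type Cdkn1a values reach 7.10.

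Mdm2 encodes the ubiquitin ligase that marks p53 for breakdown and is itself a p53 target. Its brighter probe set (1423605_PM_a_at) had 6.98, 7.15 and 6.79 in wild-type low-fat, 6.81, 6.90 and 6.83 in wild-type high-fat, 6.81, 6.68 and 6.70 in knockout low-fat and 6.90, 6.57 and 6.80 in knockout high-fat livers. The genotypes overlapped on both diets, and the averaged difference was -0.16 (SE 0.0874). The dimmer set (1427718_PM_a_at) ranged from 6.27 to 6.86 in wild-type and from 6.04 to 6.68 in knockout livers, with -0.15 (SE 0.129).

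Btg2 and Gadd45a are further targets that restrain growth. Btg2 is an antiproliferative factor, and Gadd45a is a stress sensor with a part in DNA repair and growth arrest. Btg2 (1416250_PM_at) had 6.16, 6.68 and 6.74 in wild-type low-fat and 5.86, 6.28 and 6.31 in wild-type high-fat livers. Low-fat knockout livers had 6.17, 5.42 and 6.43, and high-fat knockout livers 6.55, 6.08 and 6.29. The groups overlapped, and the low value of 5.42 belongs to the array with the lowest macrophage markers. With low-fat feeding the genotype difference was -0.52 (SE 0.234), or -0.22 without that array, and with high-fat feeding it was 0.16 (SE 0.234). The second Btg2 set (1448272_PM_at) had -0.48 (SE 0.199), or -0.21 without that array, and -0.069 (SE 0.199).

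Gadd45a had the widest scatter of all members within groups. Its single probe set had 5.29, 6.98 and 4.53 in wild-type low-fat, 4.85, 5.39 and 4.82 in wild-type high-fat, 4.17, 5.83 and 5.20 in knockout low-fat and 5.09, 6.32 and 5.21 in knockout high-fat livers. Extract 2 was the highest in all 4 groups, which was so for extract 2 in 1.22% of the 10258 genes tested. The genotype difference was -0.54 (SE 0.519) with low-fat feeding, where it was 0.15 without wild-type low-fat extract 2 and -0.92 without the 2 macrophage-poor arrays, and 0.52 (SE 0.519) with high-fat feeding. Gadd45a and Cdkn1a were not high in the same livers: wild-type low-fat extract 3, the highest for Cdkn1a, had the lowest wild-type Gadd45a signal.

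The sestrins, Sesn1 and Sesn2, are p53 targets that hold back growth signalling through mTORC1 and protect against oxidants. Sesn1 (1433711_PM_s_at) had 7.36, 7.06 and 7.29 in wild-type low-fat, 6.92, 7.05 and 7.24 in wild-type high-fat, 7.34, 6.75 and 7.19 in knockout low-fat and 7.18, 6.88 and 6.87 in knockout high-fat livers. The genotypes overlapped on this set (-0.12 averaged, SE 0.111) and on the other 2 sets, which had -0.099 (1454699_PM_at, SE 0.159) and -0.32 (1438931_PM_s_at, SE 0.135). Sesn2 (1451599_PM_at) had 5.97, 5.91 and 6.40 in wild-type low-fat, 5.79, 5.86 and 6.20 in wild-type high-fat, 6.02, 6.10 and 5.99 in knockout low-fat and 6.07, 5.94 and 6.28 in knockout high-fat livers. It was the 1 probe set of the 16 with a higher average in the knockout (0.045, SE 0.109), and its dimmer set (1425139_PM_at) had -0.025 (SE 0.111). Both signs turned when arrays were left out: without the 2 macrophage-poor arrays the brighter set had -0.018 and the dimmer one 0.053, and without knockout high-fat extract 3 alone the brighter set had -0.0017. Phlda3, which blunts Akt signalling, was near the floor of the arrays. It had 3.79, 4.07 and 3.92 in low-fat wild-type, 3.90, 3.98 and 3.69 in high-fat wild-type, 3.92, 3.63 and 3.71 in low-fat knockout and 3.76, 3.50 and 3.71 in high-fat knockout livers. They overlapped, with an averaged difference of -0.19 (SE 0.0879), and this set fell under the filter on dim genes, so 7 member genes entered the fit across genes.

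Counted over probe sets, all 16 had a lower mean in the knockout with low-fat feeding, and 12 of 16 did with high-fat feeding. Over the 7 genes in the fit, the median genotype difference was -0.51 with low-fat feeding, -0.087 with high-fat feeding and -0.16 averaged. The median of all 10258 genes was 0.00494, 0.00403 and 0.00574 in the same comparisons, and 48.5%, 48.5% and 47.8% of them were lower. On the low-fat diet 2 of the 16 probe sets had every knockout liver below every wild-type liver, both of them Ccng1, against 4.61% of all probe sets. On the high-fat diet 5 of 16 did, the 3 Ccng1 and both Cdkn1a sets, against 4.84%. Over both diets at once 1 of 16 did, the brightest Ccng1 set, against 0.0733%. The low-fat means of 3 genes turned higher when 1 array was dropped: Sesn1 (0.033 without knockout low-fat extract 2), Sesn2 (0.096 without wild-type low-fat extract 3) and Gadd45a, as given above. Without the 2 macrophage-poor arrays, 12 of 16 probe sets were lower with low-fat feeding, 13 with high-fat feeding and 14 averaged, and signs turned for 4, 1 and 3 of them. With low-fat feeding the 4 that turned higher were the dimmer sets of Mdm2 (0.024) and Sesn2 (0.12) and 2 Sesn1 sets (0.033 and 0.23). Since these contrasts chose the genes, nothing is read from the counts.

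**Figure D3:**
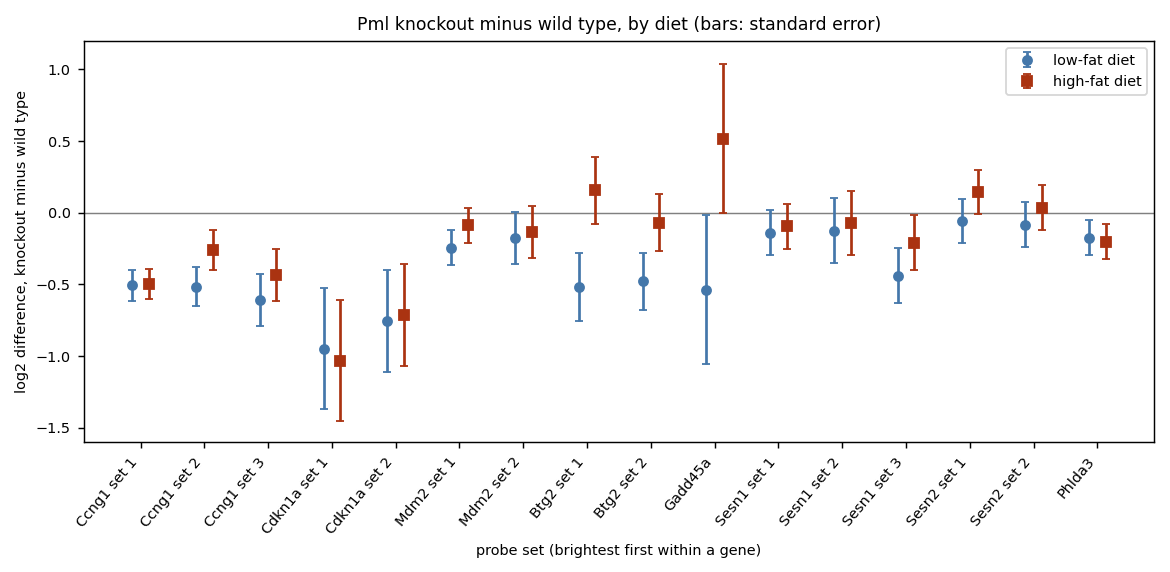
Knockout minus wild type on the log2 scale (y axis) for the 16 probe sets (x axis) on each diet, with bars of 1 standard error; n = 3 livers a group. All low-fat points lie below 0, from -0.95 to -0.058, and on the high-fat diet Gadd45a, Btg2 set 1 and both Sesn2 sets lie above 0.

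Diet was tested next, to ask whether 20 weeks of fat-rich food moved these genes in either genotype. None of the 7 member genes passed in wild-type livers (limma, Benjamini-Hochberg adjusted p of 0.05), where 0.175% of all genes tested did. None passed in knockout livers (3.03% of all genes did) or averaged over genotypes (4.56%), and none differed between genotypes in its diet effect (0% of all genes did). At an unadjusted p under 0.05, 0 of 7 were found in each of these 4 comparisons, against 8.82%, 18.3%, 19.7% and 5.7% of all genes. In a fit of all 45037 probe sets 0 of the 16 passed, against 0.0666%, 0.502%, 1.02% and 0%. The difference of diet effects equals the high-fat minus the low-fat genotype difference, so it draws on the values that chose the genes. Its p and intervals for the members are therefore a description only. The diet effects within wild type and within knockout also share group means with the genotype differences on each diet. Their p and intervals for the members are likewise a description only. The effect averaged over genotypes weights both genotypes alike, so the genotype differences do not enter it. A p that misses the threshold does not show that diet leaves these genes alone, so the intervals are given. In the text from here on, SE, intervals and p come from limma across genes, each gene by its brightest probe set, unless stated otherwise.

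For Ccng1 the difference, high-fat minus low-fat, was 0.015 averaged over genotypes (SE 0.0693, limma adjusted p = 0.945), and its 95% interval ran from -0.14 to 0.17. A change of more than 1.12-fold in either direction therefore lay outside the interval. For Cdkn1a it was -0.020 (SE 0.319, limma adjusted p = 0.987) with an interval from -0.71 to 0.67, up to 1.64-fold. The diet effect on Ccng1 was thus bounded closely, and that on Cdkn1a loosely. Mdm2 had -0.051 (95% interval -0.23 to 0.13), Sesn1 -0.14 (-0.39 to 0.096) and Sesn2 -0.041 (-0.28 to 0.19). Btg2 had -0.040 (-0.41 to 0.34) and Gadd45a -0.053 (-0.91 to 0.80), the last being open to changes of up to 1.88-fold.

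Btg2 and Gadd45a had opposite signs in the 2 genotypes. These effects share group means with the genotype differences that chose the genes, so nothing is read from the signs. In wild-type livers Btg2 had -0.38 (SE 0.244), and in livers without Pml 0.30 (SE 0.244). The difference between these effects was 0.67 (95% interval -0.076 to 1.42, limma adjusted p = 0.869). In wild-type livers Gadd45a had -0.58 (SE 0.557), and in livers without Pml 0.47 (SE 0.557), with a difference of 1.05 (-0.65 to 2.76, limma adjusted p = 0.907). Neither difference passed the threshold, and single arrays moved both. Without knockout low-fat extract 2, Btg2 had 0.0038 in livers without Pml and a difference of 0.38. Without wild-type low-fat extract 2, Gadd45a had 0.11 in wild-type livers, the same sign as in the knockout, and a difference of 0.37. Over the 12 fits that left out 1 array the difference for Gadd45a ran from 0.37 to 1.59.

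**Figure D4:**
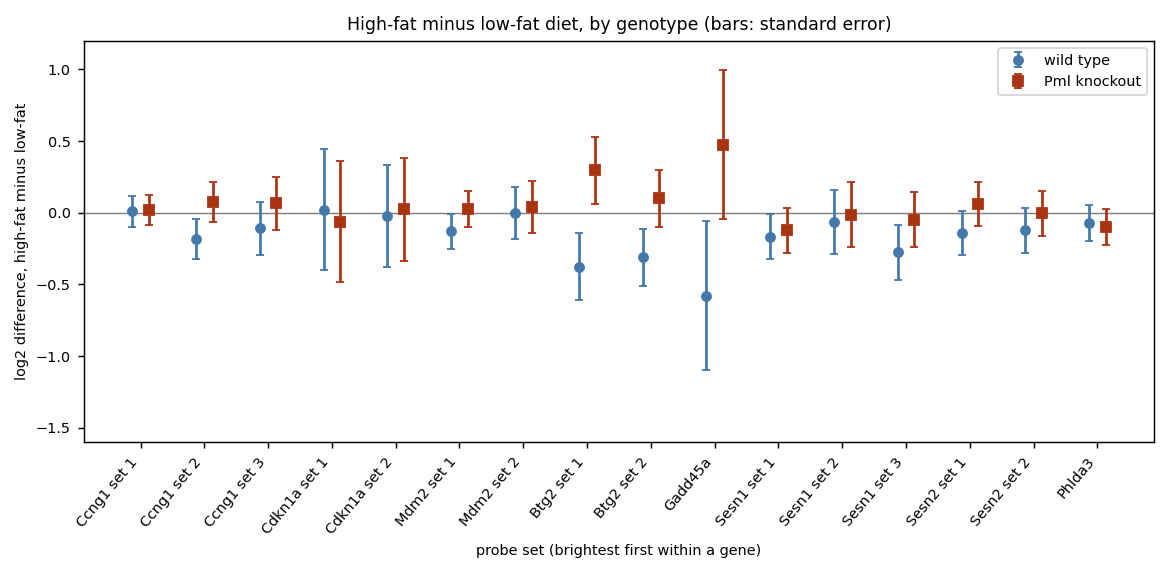
High-fat minus low-fat diet on the log2 scale (y axis) for the 16 probe sets (x axis) in each genotype, with bars of 1 standard error from the fit of all probe sets; n = 3 livers a group. Ccng1 set 1 lies at 0.010 in wild type, with 0.020 in the knockout, and Gadd45a lies at -0.58 and 0.47 with the widest bars.

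Knockout low-fat extract 2 was the lowest of the 12 livers on 10 of the 16 member probe sets, against 12.5% of all probe sets. The members were chosen by their genotype differences, and several of these sets measure the same gene, so nothing is read from this count. Knockout low-fat extract 2 also had the lowest macrophage markers. Among the sets on which it was not the lowest were both Cdkn1a sets. Leaving it and knockout high-fat extract 3 out, a choice made after seeing the data, brought the median low-fat difference of the 7 genes from -0.51 to -0.22, the high-fat median from -0.087 to -0.042 and the averaged one from -0.16 to -0.12. The averaged difference went from -0.18 to -0.030 for Btg2, from -0.12 to -0.0045 for Sesn1 and from -0.011 to -0.12 for Gadd45a.

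**Figure D5:**
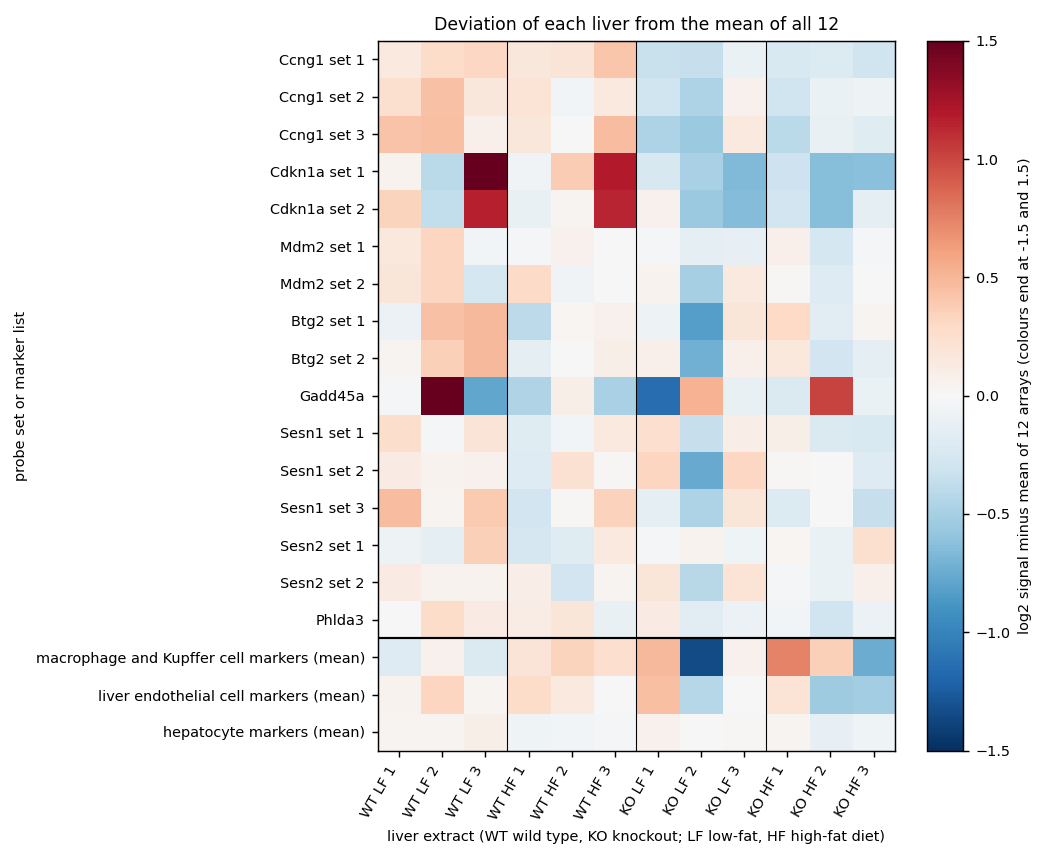
Deviation of each liver (x axis) from the mean of all 12, in log2 units as colour (red higher, blue lower, ending at -1.5 and 1.5), for the 16 probe sets and for the mean of the macrophage, endothelial and hepatocyte markers (y axis). The column of knockout low-fat extract 2 is blue for most members and for the macrophage markers, which average 5.13 there.

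Other p53 targets, from a list of 37, had 25 genes in the fit. With low-fat feeding 19 of the 25 had a lower mean in the knockout (median -0.10), with high-fat feeding 14 (median -0.046) and averaged 17 (median -0.083). None passed in a genotype comparison in limma, where 0.00975%, 0.00975% and 0.0195% of all genes did. At an unadjusted p under 0.05 there were 2, 4 and 5 of the 25, against 8.72%, 4.46% and 7.26% of all genes. This list, like those below, was chosen with earlier results of these data known, so nothing is read from its genotype counts. The targets with the largest averaged differences were Trp53inp1, a cofactor of p53 in stress and autophagy, at -0.57 (SE 0.248), Plk2, a kinase of the stress response, at -0.40 (SE 0.219), and Ddit4, an inhibitor of mTORC1, at -0.34 (SE 0.480). Trp53inp1 had 9.31, 9.16 and 10.18 in wild-type low-fat, 9.33, 9.17 and 9.74 in wild-type high-fat, 9.46, 8.39 and 9.24 in knockout low-fat and 9.32, 8.07 and 8.98 in knockout high-fat livers. Its highest livers were the same 2 wild-type extracts that were highest for Cdkn1a, and the genotypes overlapped.

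With diet, 1 of these 25 targets passed averaged over genotypes, against 4.56% of all genes, and the same 1 passed in knockout livers, against 3.03%. At the adjusted threshold these shares are near the background. At an unadjusted limma p under 0.05, diet gave 5 of 25 in wild type, 4 in knockout, 8 averaged and 1 for the difference. The shares of all genes were 8.82%, 18.3%, 19.7% and 5.7%. The wild-type and averaged counts lie above these shares, and the others do not. The list was chosen with earlier results known and no set test was run, so nothing is read from its counts. Dcxr, which encodes a reductase of dicarbonyls and xylulose, rose on the high-fat diet. It had 9.90, 10.22 and 10.03 in wild-type low-fat, 10.40, 10.29 and 10.29 in wild-type high-fat, 9.82, 9.59 and 9.95 in knockout low-fat and 10.53, 10.32 and 10.14 in knockout high-fat livers. Every high-fat liver was above every low-fat liver of its genotype, as in 7.83% of genes tested in wild type and 10.8% in knockout. Averaged over genotypes it rose by 0.41 (SE 0.0819, limma adjusted p = 0.0143), a call that 22 of 22 alternatives kept. In knockout livers it rose by 0.54 (limma adjusted p = 0.0288), a call that 16 of 23 alternatives kept. It was lost without knockout low-fat extract 1 or 2 or knockout high-fat extract 1 or 2, without a variance trend (limma adjusted p = 0.0511), in a fit of the 2 knockout groups alone (limma adjusted p = 0.0923) and without the 2 macrophage-poor arrays (limma adjusted p = 0.0696). The adjusted p in limma was at most 0.0983 over these alternatives.

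Regulators and partners of p53, from a list of 21 symbols, had 13 genes in the fit, and 0 passed between genotypes in limma. At an unadjusted p under 0.05 there were 1, 1 and 0 (low-fat, high-fat and averaged), against 8.72%, 4.46% and 7.26% of all genes. For diet in wild type, in knockout, averaged and for the difference of diet effects there were 0, 1, 3 and 2. All genes had shares of 8.82%, 18.3%, 19.7% and 5.7% there. The largest averaged differences were those of Crebbp, an acetyltransferase (-0.20, SE 0.173), Chek2, a DNA damage kinase (0.18, SE 0.0915), and Daxx, a partner of Pml bodies (-0.17, SE 0.111). Hipk2, a kinase that phosphorylates p53, fell on the high-fat diet in knockout livers, the 1 of 13 that did so, against 3.03% of all genes called there. It had 9.29, 9.25 and 9.17 in knockout low-fat and 8.77, 8.75 and 8.84 in knockout high-fat livers. The groups did not overlap, and 10.9% of all genes tested were likewise lower in every knockout high-fat liver. Hipk2 fell by 0.45 (SE 0.0923, limma adjusted p = 0.0244), against -0.029 in wild-type livers. The difference between the genotypes did not pass (-0.42, limma adjusted p = 0.802). The call was kept in 16 of 23 alternatives. It was lost without any 1 of the 3 knockout high-fat extracts, without knockout low-fat extract 1 or 2, in a fit of the 2 knockout groups alone (limma adjusted p = 0.0531) and without the 2 macrophage-poor arrays (limma adjusted p = 0.119).

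Relatives of the members, such as Ccng2, Gadd45b and the Bcl2 family, numbered 16, of which 13 were in the fit. None passed in any of the 7 comparisons in limma. Between genotypes 0, 1 and 1 of the 13 had an unadjusted p under 0.05 (low-fat, high-fat and averaged), against 8.72%, 4.46% and 7.26% of all genes. For diet in wild type, in knockout, averaged and for the difference of diet effects there were 1, 2, 3 and 0. The shares of all genes there were 8.82%, 18.3%, 19.7% and 5.7%. With low-fat feeding 6 of the 13 were lower in the knockout (median 0.034), and with high-fat feeding 8 were (median -0.017). Ccng2, the nearest relative of Ccng1, had an averaged difference of -0.37 (SE 0.140). Gadd45g had -0.44 (SE 0.592), made of 0.79 with low-fat and -1.66 with high-fat feeding (SE 0.837 each). Mcl1, a survival factor, had 0.18 (SE 0.128).

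Cell cycle genes numbered 22, with 11 in the fit. In the knockout 8 of the 11 had a higher mean with low-fat feeding (median 0.10), and 5 did with high-fat feeding (median -0.036). Of all genes, 48.5% had a lower mean on each diet. In limma 0 of the 11 passed between genotypes. At an unadjusted p under 0.05 there were 2, 1 and 0 (low-fat, high-fat and averaged), against 8.72%, 4.46% and 7.26% of all genes. For diet in wild type, in knockout, averaged and for the difference of diet effects there were 2, 4, 3 and 3. All genes had shares of 8.82%, 18.3%, 19.7% and 5.7% there. Ccne1, cyclin E1, had 0.26 (SE 0.136) averaged over diets, Ccnd1, cyclin D1, 0.24 (SE 0.212) and Mcm2, a replication helicase subunit, 0.20 (SE 0.125). Ccnd1 rose with the high-fat diet averaged over genotypes (0.82, SE 0.212, limma adjusted p = 0.0475). It was the 1 of 11 called there, against 4.56% of all genes, and the call was kept in 8 of 22 alternatives and in 2 of 12 fits without 1 array (limma adjusted p up to 0.116). The retinoblastoma gene Rb1 fell on the high-fat diet in knockout livers (-0.57, SE 0.141, limma adjusted p = 0.0498). That call, 1 of 11 against 3.03% of all genes, was kept in 7 of 23 alternatives and in 3 of 12 fits without 1 array (limma adjusted p up to 0.176), and the value was -0.27 when its probe sets were averaged.

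The genes whose signal followed Ccng1 most closely over the 12 livers were Bloc1s4 (r = 0.944), Exoc4 (r = 0.902), Pml (r = 0.892), Ate1 (r = 0.814) and Aen (r = 0.812). Those nearest to Cdkn1a were Shld1 (r = 0.911), Spats1 (r = 0.901), Marchf6 (r = 0.897), Sf3b2 (r = 0.889) and Map3k5 (r = 0.882). These values are descriptive and rest on the same 12 arrays, in which genotype, diet and extract are shared by all genes. Removing the group means takes out genotype and diet together. The r with Ccng1 was then -0.19 for Pml, 0.84 for Exoc4, 0.74 for Bloc1s4, 0.45 for Aen and 0.34 for Ate1. Shld1 followed Cdkn1a within groups as well (0.84), with 7.13, 6.20 and 7.53 in wild-type low-fat and 6.63, 6.80 and 7.53 in wild-type high-fat livers against 5.97 to 6.38 in the knockout. Ccng1 and Cdkn1a had r = 0.73 with each other, and 0.40 with the group means removed. Cdkn1a and Gadd45a had r = -0.46, and Ccng1 and Gadd45a 0.018.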

How the data were processed

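Total RNA from 12 liver extracts was labelled with biotin and hybridised to Affymetrix PM arrays, per the labels. The authors deposited log2 signals, and the submitters' processing notes name RMA as the method. Its version was not stated. RMA usually gives all arrays 1 distribution of probe signals, so a shift common to every gene would not show, and changes of dim probe sets are compressed. No further scaling was applied. The array's annotation gave 1 gene for 28898 probe sets, several for 551 and none for 15588, and 104 control probe sets were left out.

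Differences were fitted with limma 3.58.1 in R 4.3.3 as 4 group means over 12 arrays (8 residual degrees of freedom, variance trend). In the fit across genes each gene was represented by its brightest probe set, and the 40% dimmest of 17097 genes (6839) were left out, which left 10258. A second fit held all 45037 probe sets. Genes passed at a Benjamini-Hochberg adjusted p of 0.05. The number of arrays limits the precision.

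The members and the gene lists were chosen with earlier results of these data known. Named are all members, list genes past the threshold (otherwise the 3 largest averaged genotype differences a list), Pml, and the 5 genes most correlated with Ccng1 and with Cdkn1a. Genes named beyond this rule were chosen after their values were seen.

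The analysis of diet averaged over genotypes was tested on simulated data: 82.5% of 80 genes changed 1.5-fold and 100% of 80 changed 2-fold were recovered, with 8 false calls among 10258 genes. For extracts with the same number, r of their deviations from the group means ran from -0.166 to 0.381 over 18 pairs (median 0.0615), with 7 above 0.1. Extracts with different numbers were not compared, so these values do not settle whether the numbers pair the samples. The labels name no pairing, and the numbers were not treated as pairs in the main fits. Alternatives changed 1 choice at a time: median centring or quantile normalization, keeping dim genes or dropping 60% of genes, averaging a gene's probe sets, the variance prior (robust, or without trend), fitting only the compared groups, blocking on replicate number, a threshold of 0.10, and dropping each array. Dropping the 2 arrays poorest in macrophage markers was added after seeing the data.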

Additional observations from a re-analysis of the deposited data

How the results depend on the processing

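No member passed in any diet comparison under any alternative that was run. With a gene's probe sets averaged, the diet effect on Ccng1 was -0.094 in wild type and -0.020 averaged. Without the 2 macrophage-poor arrays, chosen after seeing the data, the low-fat genotype median was -0.22, and signs turned for Mdm2 (diet in knockout, -0.021), Gadd45a (diet averaged, 0.22) the differences of diet effects of Ccng1 (-0.0031) and Sesn1 (-0.075), and the genotype differences of Sesn2 (averaged, -0.018) and Sesn1 (low-fat, 0.033). Leaving out each array in turn gave genotype medians over the members of -0.58 to -0.22 on the low-fat diet, -0.16 to 0.0071 on the high-fat diet (above 0 without knockout high-fat replicate 2, while the other 11 stayed below) and -0.21 to -0.12 averaged.

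The sign of some small diet differences also turned when an array was left out. In wild type the ranges were -0.068 to 0.055 for Ccng1, -0.42 to 0.68 for Cdkn1a, -1.11 to 0.11 for Gadd45a, -0.27 to 0.011 for Sesn2. In knockout they were -0.020 to 0.099 for Ccng1, -0.17 to 0.050 for Cdkn1a, -0.046 to 0.12 for Mdm2, -0.29 to 0.00077 for Sesn1, -0.031 to 0.14 for Sesn2. Averaged over genotypes they were -0.024 to 0.054 for Ccng1, -0.24 to 0.31 for Cdkn1a, -0.19 to 0.065 for Btg2, -0.32 to 0.29 for Gadd45a, -0.10 to 0.036 for Sesn2. For the difference of diet effects they were -0.035 to 0.089 for Ccng1, -0.74 to 0.36 for Cdkn1a, -0.13 to 0.17 for Sesn1. The cause was not tested.

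Among all genes, diet in wild type called 18 genes, 34 with quantile normalization, 65 at an adjusted p of 0.10 and 5 to 39 without 1 array. Diet in knockout called 311, 68 in a fit of its 2 groups, 69 without the 2 macrophage-poor arrays, 655 at 0.10 and 71 to 461 without 1 array. Averaged, diet called 468, and 256, 921 and 271 to 591 likewise. With the replicate number as a block, a pairing that the labels do not name, 0 members were called, and 22, 310 and 484 genes in all.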
